A study of Mus musculus with 3 samples.

Results

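The Pax genes encode paired-box transcription factors. Their transcript levels were read in mouse embryos that had lost the small Maf proteins MafF and MafK and either kept or had also lost the small Maf protein MafG. The 8 genes Pax1, Pax2, Pax3, Pax5, Pax6, Pax7, Pax8 and Pax9 were taken by name, through the RefSeq accession that the array gives for each probe, from 16355 genes with a probe. They had 10 probes. Of the 8 genes, 7 were well above background on all 3 arrays, and Pax5 was not above background on any of them. Each group was a single 1-colour array hybridised with total RNA pooled from 3 whole embryos of mixed background. The groups were MafF-/-:MafG-/-:MafK-/- embryos at E10.5 (triple null), MafF-/-:MafG+/+:MafK-/- embryos at E10.5 and MafF-/-:MafG+/+:MafK-/- embryos at E9.5 (called MafG+/+ E10.5 and MafG+/+ E9.5 here). All embryos therefore lacked MafF and MafK, and no wild-type embryo was among the 3 arrays. A single array stood for each group, so no difference has a replicate error and no test was run; "higher" and "lower" describe these 3 arrays. The targeted gene Mafg lay at a log2 level of -7.74 in triple null, where it was not above background, beside 0.48 and 1.03 on the MafG+/+ E10.5 and E9.5 arrays, and was at least 173-fold lower in triple null than in the E10.5 pool.

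Pax proteins bind DNA through the paired domain, and some of them carry a homeodomain as well. They fall into subgroups of close relatives. Pax1 and Pax9 act in the sclerotome, which forms vertebrae, and in the pharyngeal pouches; Pax3 and Pax7 act in the dorsal neural tube, the dermomyotome and the neural crest; Pax6 acts in the eye, forebrain, spinal cord and pancreas; and Pax2, Pax5 and Pax8 act at the midbrain-hindbrain boundary and in the ear, kidney and thyroid. Small Maf proteins are bZIP factors that bind DNA as partners of the CNC and BACH families, at sites called Maf recognition elements.

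Levels below are log2 intensities minus the 75th percentile of the array, so that 0 stands for that percentile, and differences are differences of such levels. A gene was counted as apart when it was above background on each array of a pair and at least 2-fold (1 on the log2 scale) different. In triple nulls against the MafG+/+ E10.5 pool, Pax8 was higher by that measure and the other 6 measured members were not 2-fold apart, so 1 of 7 was counted, beside 5.45% of 12526 genes (0.982% were 2-fold higher). Between MafG+/+ E10.5 and E9.5, Pax8 was lower at E10.5 and was again the 1 of 7 counted, beside 5.2% of 12511 genes (1.07% were 2-fold lower). These pairs share the MafG+/+ E10.5 array. Between triple null E10.5 and MafG+/+ E9.5, none of 7 was 2-fold apart, beside 0.783% of 12518 genes. At 3-fold no member was apart in any pair, beside 2.18%, 1.93% and 0.224% of all genes in that order. The median difference over the 7 members was -0.07, -0.07 and -0.14 in the same order of pairs, beside 0.06, -0.05 and 0.01 over all genes. In whole-embryo RNA, fewer cells of a type and less RNA per cell cannot be told apart.

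**Figure D1:**
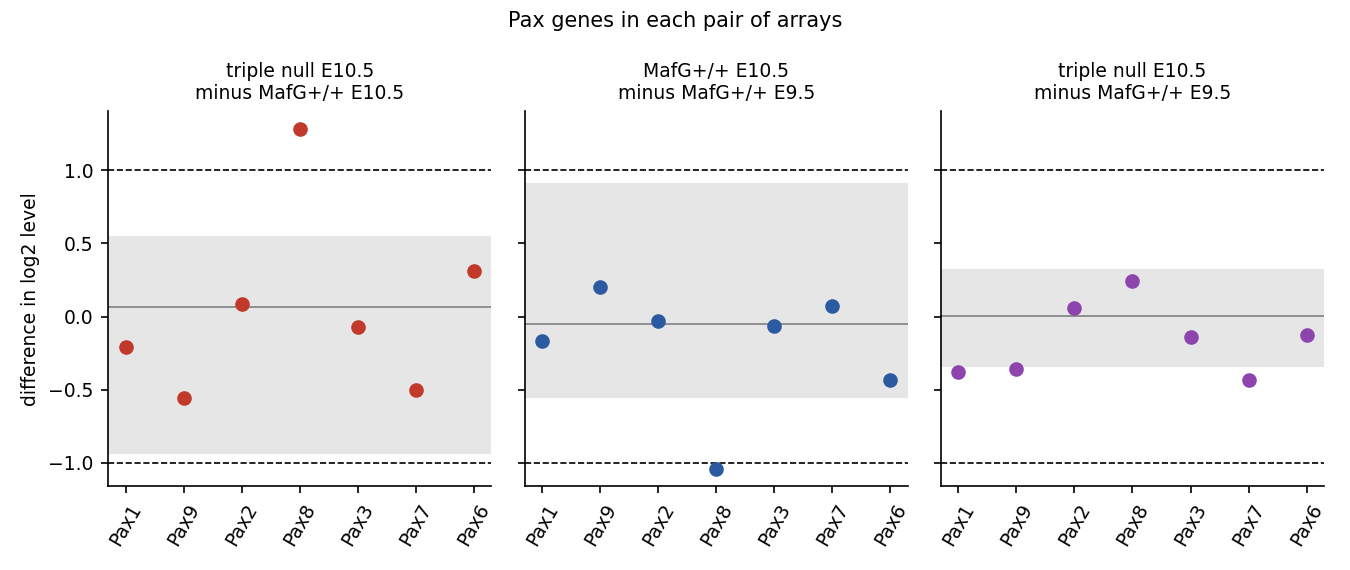
Difference in log2 level (y axis) of the 7 Pax genes above background, one point per gene, in the 3 pairs of arrays. Grey bands run from the 5th to the 95th percentile of all genes in that pair (-0.93 to 0.55, -0.55 to 0.91 and -0.34 to 0.32), the grey line is their median and dashed lines mark 2-fold. Pax8 is the gene past a dashed line, at 1.28 in the first panel and -1.04 in the second.

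The sclerotome genes Pax1 and Pax9 were both lowest in triple nulls. Pax9, needed for teeth and the thymus, had 1 probe, printed once, with an intensity of 174 in triple null, 337 in MafG+/+ E10.5 and 220 in MafG+/+ E9.5. The corresponding levels were -2.63, -2.08 and -2.27. Pax9 was thus 1.47-fold lower in triple nulls than in MafG+/+ E10.5 (-0.56) and 1.28-fold lower than in MafG+/+ E9.5 (-0.36). Between the MafG+/+ days the difference was 0.20. Probes printed 10 times show how much spots of one array scatter. At the level of Pax9 their spot SD gives an error of 0.089 for the first difference and 0.097 for the second, an error of the spots alone and not of the embryos.

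Pax1, which patterns the vertebral column, had a bright probe printed 10 times and a dim one printed once. The bright probe lay at 0.95 ± 0.04 in triple null, 1.12 ± 0.04 in MafG+/+ E10.5 and 1.18 ± 0.03 in MafG+/+ E9.5 (SD over 10 spots each). The triple null spot was lower than the spot at the same place in MafG+/+ E10.5 in 10 of 10 places, with differences between -0.22 and -0.10, and lower than in MafG+/+ E9.5 in 10 of 10. The dim probe went the same way, with levels of -6.31, -6.06 and -5.78. Its own differences, -0.25 from E10.5 and -0.53 from E9.5, stood beside a spot error of 0.31 and 0.33. Averaged over both probes, Pax1 differed by -0.21 from MafG+/+ E10.5 and by -0.38 from E9.5. With normexp background correction these averages were -0.0081 and -0.22. The bright probe alone gave -0.17 and -0.23 in the main setting.

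**Figure D2:**
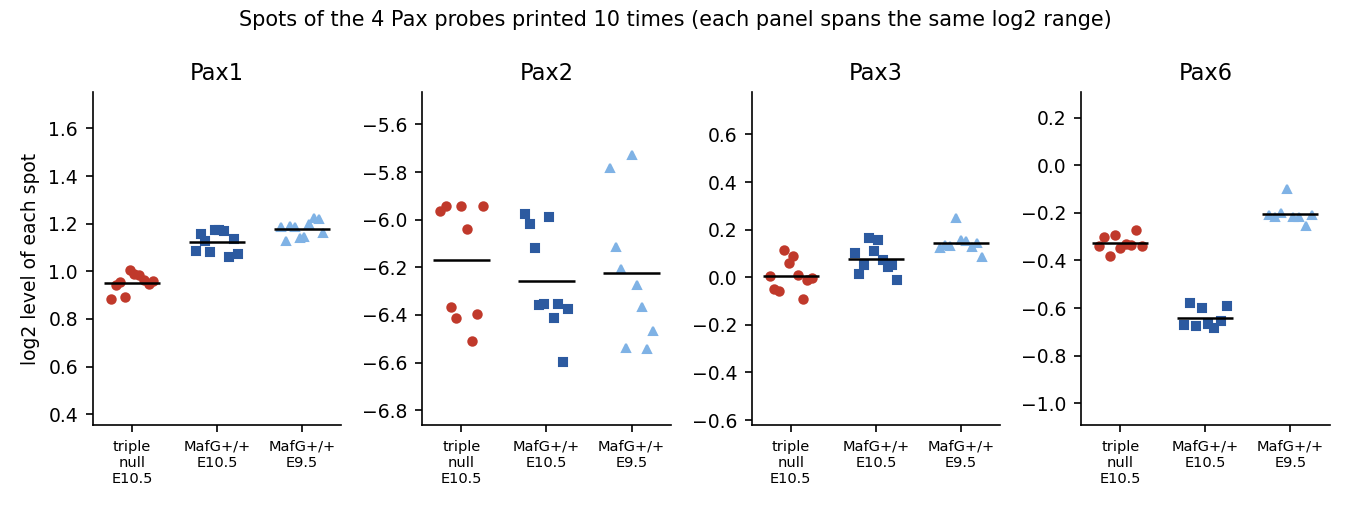
Log2 level of every spot (points) on each array for the 4 Pax probes printed 10 times, with the mean as a black line. Spots marked as outliers are left out, and the y axes span the same log2 range. Pax1 spots of the triple null array all lie below those of the other arrays, Pax6 spots of the MafG+/+ E10.5 array lie below all others, and the dim Pax2 spots overlap.

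Pax3 and Pax7 mark dermomyotome, dorsal neural tube and neural crest. Pax7, which later maintains muscle stem cells, had intensities of 153, 286 and 203 from 1 spot each on the triple null, MafG+/+ E10.5 and MafG+/+ E9.5 arrays, and levels of -2.82, -2.31 and -2.39. It was 1.42-fold lower in triple nulls than in MafG+/+ E10.5 (-0.51) and 1.35-fold lower than in MafG+/+ E9.5 (-0.43), with spot errors of 0.099 and 0.11. With normexp the first difference was -0.31. The MafG+/+ days differed by 0.07 in Pax7, with a spot error of 0.092. Pax3, the gene mutated in splotch mice, lay at 0.01 ± 0.07 in triple null, 0.08 ± 0.06 in MafG+/+ E10.5 and 0.14 ± 0.04 in MafG+/+ E9.5 (SD over 10, 10 and 9 spots). Pax3 was lower in triple nulls than at MafG+/+ E10.5 in 9 of 10 places and than at E9.5 in 9 of 9. The differences were 0.07 and 0.14 only. The spot error of 0.080 for the first is that of single spots, whereas the level is a mean over spots. Over the 10 places the first difference had an SD of 0.038. The spots of an array share 1 RNA pool and 1 scaling, so counts of places and this SD describe spots and not embryos. Across 11 processing settings the first Pax3 difference lay between -0.083 and -0.045.

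Pax6, needed for eye and forebrain, ran differently. Its bright probe lay at -0.33 ± 0.03 in triple null (9 spots), -0.64 ± 0.04 in MafG+/+ E10.5 (8 spots) and -0.20 ± 0.04 in MafG+/+ E9.5 (8 spots). The MafG+/+ E10.5 array was thus the lowest. Triple null was 1.24-fold higher than MafG+/+ E10.5 (0.31; higher in 8 of 8 places with a usable spot on both arrays), and MafG+/+ E10.5 was 1.35-fold lower than E9.5 (-0.44; lower in 7 of 7). Triple null and MafG+/+ E9.5 differed by -0.12, lower in triple null in 8 of 8 places. The spot errors of the 3 differences lay between 0.073 and 0.079, which is for single spots and not for these means over spots. A dim Pax6 probe was not well above background on any array and stayed out; averaged in, it brings the difference at E10.5 to 0.03 and that from MafG+/+ E9.5 to -0.38. Of 7 neural progenitor markers, 2 were above 0 and 5 below 0 in triple null against MafG+/+ E10.5, 1 of them at least 2-fold lower, and their summed level, in multiples of the 75th percentile, was 50.9, 79.9 and 47.9 on the triple null, MafG+/+ E10.5 and MafG+/+ E9.5 arrays. Neuron markers summed to 10.7, 43.2 and 11.0, and 9 of 10 were at least 2-fold lower in triple nulls than at E10.5. The part of tissue make-up in the Pax6 difference was not tested. The other gene of this subgroup, the pancreas and retina gene Pax4, lies outside the 8. Its 1 dim probe was above background on the triple null (-6.74) and MafG+/+ E9.5 (-6.46) arrays and not in MafG+/+ E10.5 (-7.44). Counted from the lowest level called well above background on that array, Pax4 was at least 1.23-fold higher in triple nulls. The spot error of the difference between these 2 arrays, from 1 spot on each, was 0.53 on the log2 scale, so the bound is poorly measured.

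**Figure D3:**
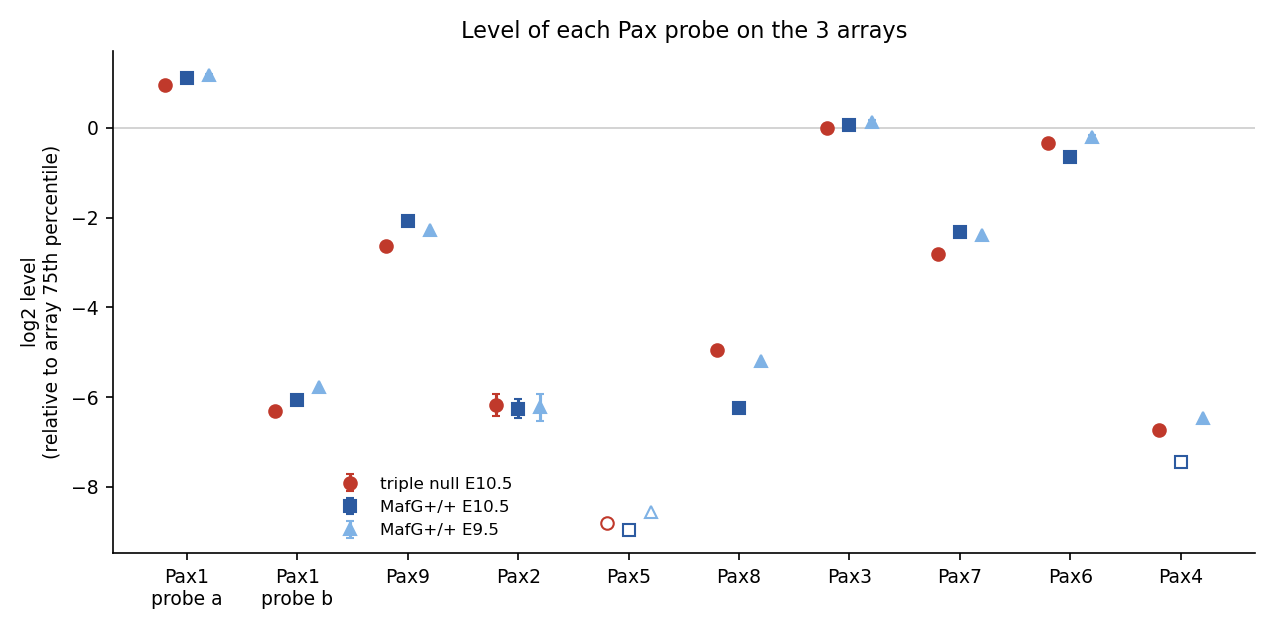
Log2 level (y axis, relative to the array's 75th percentile) of Pax probes on the triple null E10.5, MafG+/+ E10.5 and MafG+/+ E9.5 arrays; bars are the SD over spots where a probe was printed 10 times, and open symbols are not well above background. Levels of different probes are not comparable, so each gene is read across its 3 symbols. Pax8 sits lowest in MafG+/+ E10.5, and Pax9 and Pax7 sit lowest in triple null.

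Among Pax2, Pax5 and Pax8, only Pax8 showed a difference of 2-fold, and its signal was low. Pax8, a thyroid, kidney and ear factor, had intensities of 34.8, 18.8 and 29.1 from 1 spot each on the triple null, MafG+/+ E10.5 and MafG+/+ E9.5 arrays, and levels of -4.95, -6.24 and -5.19. It was 2.44-fold higher in triple nulls than at MafG+/+ E10.5 (1.28), and 99.4% of all genes had a lower difference. MafG+/+ E10.5 was 2.06-fold lower than E9.5 (-1.04). Both values rest on the same spot of the MafG+/+ E10.5 array, and spot errors were 0.26 for each. With normexp background correction, which compresses dim signals, they were 0.59 and -0.58 and no longer 2-fold. Triple null and MafG+/+ E9.5 differed in Pax8 by 0.24, beside a spot error of 0.21.

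Pax2, the kidney, ear and optic stalk gene, lay at -6.17 ± 0.25 (9 spots), -6.26 ± 0.21 (10 spots) and -6.22 ± 0.30 (9 spots) in the same order of arrays, and its spots overlapped between all of them. Its differences of 0.09, -0.03 and 0.06 were within the spot errors of 0.32, 0.32 and 0.34. Those errors are for single spots and not for these means over spots. The probe lies close to the lowest level called well above background (between -7.04 and -6.89), so a difference of this gene is poorly measured here. Pax5, a gene of the midbrain-hindbrain boundary and of B cells, had intensities of 2.42, 2.84 and 2.84 from 1 probe, not well above background on any array, and no fold is given.

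By the annotation of RefSeq assembly GRCm38.p6, Pax3 lies on chromosome 1, Pax1, Pax6 and Pax8 on chromosome 2, Pax5 and Pax7 on chromosome 4, Pax9 on chromosome 12 and Pax2 on chromosome 19. RefSeq start-site windows of that build, 250 bases before to 50 bases after a start, were found for 7 of the 8 genes (10 windows). They were searched on both strands for letters of the Maf recognition element: TGCTGA, one arm of the element, and TGACNNNGC, the core that antioxidant response elements share with it. The strings share TGA and can overlap. TGCTGA was in 2 of 10 Pax windows, those of Pax8 and Pax9, beside 19.5% of 32851 windows of all genes. TGACNNNGC was in 1 of 10, the downstream start of Pax6, with 3 matches, beside 12.4% of all windows. The windows with a match are shown because Pax8 was the gene past 2-fold, Pax9 the next farthest apart at E10.5 and Pax6 differed the other way from Pax9 in both pairs with the MafG+/+ E10.5 array; capitals mark the matches, and each runs 5′ to 3′ on the strand of the gene.
Pax8, GRCm38.p6 chr2:24475550-24475849, minus strand: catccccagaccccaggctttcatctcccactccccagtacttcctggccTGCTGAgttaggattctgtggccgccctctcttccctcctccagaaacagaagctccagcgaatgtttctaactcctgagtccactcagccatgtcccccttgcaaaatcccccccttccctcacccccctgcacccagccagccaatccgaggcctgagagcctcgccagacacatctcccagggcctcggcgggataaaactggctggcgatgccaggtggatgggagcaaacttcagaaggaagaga
Pax9, GRCm38.p6 chr12:56695221-56695520, plus strand: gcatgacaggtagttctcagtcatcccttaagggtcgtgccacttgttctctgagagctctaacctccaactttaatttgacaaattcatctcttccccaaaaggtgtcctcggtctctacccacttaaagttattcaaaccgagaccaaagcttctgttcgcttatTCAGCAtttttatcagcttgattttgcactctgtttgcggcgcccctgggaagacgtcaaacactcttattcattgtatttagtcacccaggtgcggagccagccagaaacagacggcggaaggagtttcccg
Pax6, GRCm38.p6 chr2:105682213-105682512, plus strand: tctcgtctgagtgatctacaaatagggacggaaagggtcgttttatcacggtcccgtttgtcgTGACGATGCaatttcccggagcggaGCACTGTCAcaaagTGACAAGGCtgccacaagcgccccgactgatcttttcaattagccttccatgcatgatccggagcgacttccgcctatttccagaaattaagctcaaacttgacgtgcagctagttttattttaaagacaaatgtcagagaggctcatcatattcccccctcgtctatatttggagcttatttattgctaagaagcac
The Pax8 match begins at base -200 from the start and lies on the strand of the gene, the Pax9 match begins at -83 on the opposite strand, and the Pax6 matches begin at -187, -162 and -148. A match is a description of letters and not of binding. The 10 windows held between 7 and 30 CpG dinucleotides, beside a median of 7 over all windows.

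Across the 3 arrays, Pax1, Pax9, Pax3 and Pax7 (4 of 7) were lowest in triple nulls, beside 24.4% of 12426 genes above background on all arrays. Pax2, Pax8 and Pax6 were lowest in the MafG+/+ E10.5 pool, as 50.2% of all genes were. No member was lowest at MafG+/+ E9.5, beside 25.4% of all genes. At a margin of at least 0.2 below both other arrays stood Pax1, Pax9 and Pax7, beside 5.81% of all genes, and at 0.3 Pax9 and Pax7, beside 3.00%. Pax1 met 0.2 narrowly, at -0.21 from MafG+/+ E10.5, and missed it with normexp (-0.0081), quantile normalization (-0.16), spike-in scaling (-0.18) or its bright probe alone (-0.17). With normexp Pax9 missed 0.3, at -0.23 from MafG+/+ E9.5. These 3 genes are expressed in derivatives of the somites, but so is the dermomyotome gene Pax3, which met neither margin. Pax1 and Pax9 belong to one subgroup of the family and Pax7 to another. Pax8, with a range of 1.28, was the one member whose 3 levels spanned at least 1. Of 6525 genes at or above the median level, those near to its pattern over the 3 arrays by Euclidean distance of mean-centred levels included Arg1 (0.21) and Arpc3 (0.23).

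**Figure D4:**
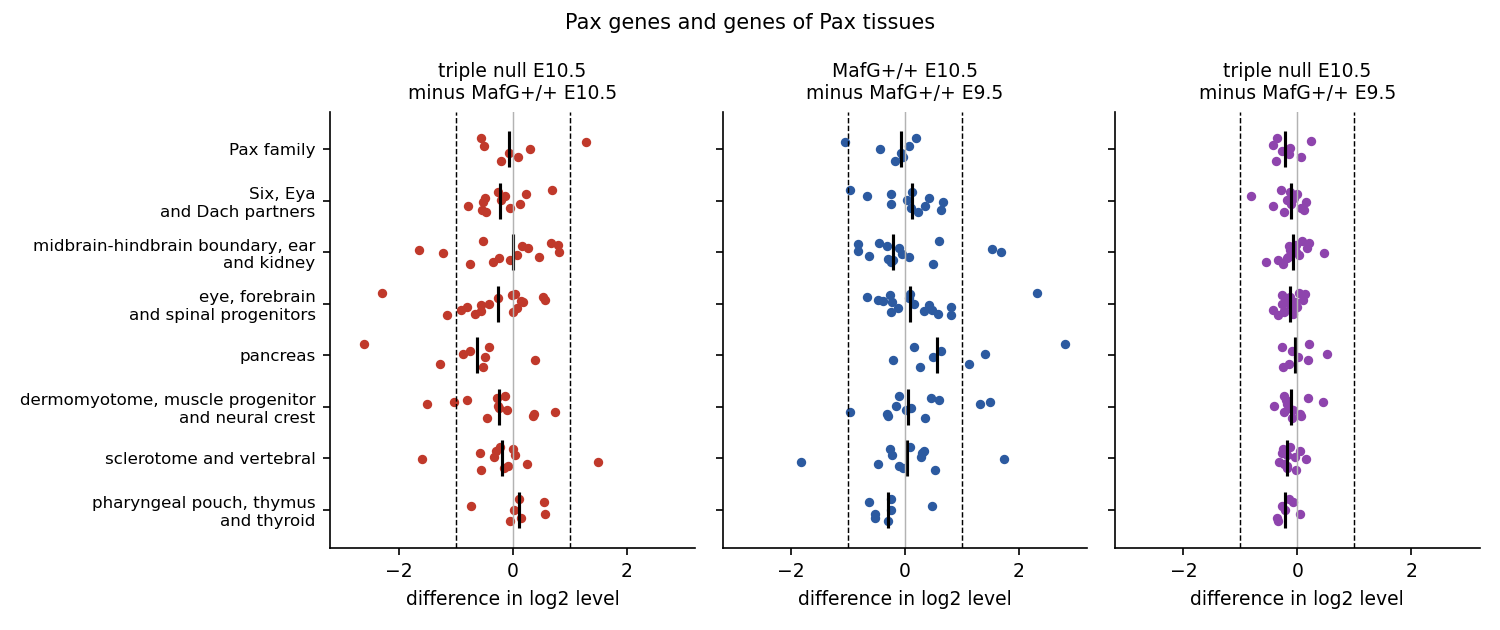
Difference in log2 level (x axis) of the Pax family, Pax4 included where measured, and of 7 lists of genes from tissues in which Pax genes act, one point per gene above background on both arrays, in the 3 pairs of arrays. Black bars are list medians and dashed lines mark 2-fold. In the right-hand panel no point passes 2-fold, and the farthest points of the first 2 panels are Ptf1a at -2.61 and 2.81.

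Genes that act with Pax factors, or in the same tissues, were read from 7 lists. Of their 99 genes, 80 were above background on both E10.5 arrays, and 1 was at least 2-fold higher and 9 were at least 2-fold lower in triple nulls, which is 12.5% beside 5.45% of all genes; the median was -0.23 beside 0.06. In the pair of MafG+/+ E10.5 against E9.5, 9 of 81 were 2-fold higher and 1 was 2-fold lower, which is 12.3% beside 5.2% of all genes. Between triple null and MafG+/+ E9.5, none of 80 was 2-fold apart (0.783% over all genes). Their median there was -0.13, beside 0.01. Of the Eya, Dach and Six-family genes, which work in a network with Pax factors, none of 12 was 2-fold apart in any pair. At E10.5 the farthest were the coactivator gene Eya2 (-0.77) and the optic gene Six6 (0.69).

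Around the sclerotome genes, the tendon progenitor factor gene Scx was 2-fold lower (-1.59) in triple nulls than at MafG+/+ E10.5, and the median of 12 genes was -0.18. Scx stood at 1.73 between MafG+/+ E10.5 and E9.5, and at 0.15 between triple null and E9.5. Around Pax3 and Pax7, the myogenic factor genes Myf6 (-1.50) and Myog (-1.03) were 2-fold lower in triple null than at MafG+/+ E10.5, of 12. Myog was 0.46 higher in triple null than in MafG+/+ E9.5, while Pax7 was 0.43 lower in that pair. In the list for eye, forebrain and spinal cord, the median of 17 genes was -0.25 in triple null against MafG+/+ E10.5, with Pax6 itself at 0.31. The pancreas list had Ptf1a (-2.61) and the glucagon gene Gcg (-1.27) 2-fold lower in the E10.5 pair, of 8. In the list for boundary, ear and kidney, the LIM factor gene Lhx1 (-1.65) and the GDNF co-receptor gene Gfra1 (-1.22) were 2-fold lower in the E10.5 pair, of 14. None of 7 pouch, thymus and thyroid genes was 2-fold apart there, with the thyroid and lung gene Nkx2-1 at -0.74 and Hhex at 0.57.

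Other features of the pools moved with these pairs. Skeletal muscle markers were at least 2-fold lower in triple nulls than at MafG+/+ E10.5 in 4 of 6 genes and 2-fold higher in 1 (Actc1, an actin gene also of the heart, 1.01), with summed levels of 26.6, 19.2 and 19.5 on the triple null, MafG+/+ E10.5 and MafG+/+ E9.5 arrays; Myod1 was above background in MafG+/+ E10.5 alone. Presomitic mesoderm markers were 2-fold higher in 3 of 5, with sums of 4.31, 4.13 and 4.64, and Hes7 was not above background in MafG+/+ E10.5. Yolk sac endoderm markers were 2-fold lower in 4 of 8 (12.4, 24.4 and 22.4). Red cell markers were 2-fold lower in 6 of 8 (345, 603 and 409). Macrophage markers were 2-fold lower in 4 of 4 (0.371, 1.67 and 0.388). Xist, at 0.18 in MafG+/+ E10.5, was not above background on the others, and the Y-linked Ddx3y, Eif2s3y, Uty and Kdm5d showed the reverse, so sex and group cannot be told apart in pairs with that array. The part of these features in the Pax differences was not tested. Between triple null and MafG+/+ E9.5, Pax7, Pax1 and Pax9 differed by -0.43, -0.38 and -0.36. The Pax1 value is a mean with a dim probe, and the bright probe alone gave -0.23. Neuron sums there were 10.7 and 11.0, macrophage sums 0.371 and 0.388, presomitic sums 4.31 and 4.64, and muscle sums 26.6 and 19.5. The muscle sums weigh most the brightest of these genes, Actc1 (levels of 4.43 and 3.94), which is also a heart gene. Of 6 muscle markers, 4 were higher in triple null than in MafG+/+ E9.5 and 2 were lower, none of them 2-fold. The Y-linked genes were above background on both arrays. Yolk sac endoderm markers were at least 2-fold lower in triple null in 5 of 8 and below 0 in 8 of 8 (median -1.41, sums 12.4 and 22.4). Red cell markers were below 0 in 8 of 8 (345 and 409), none of them 2-fold lower.

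The protein-coding genes next to each member on the chromosome were chosen for reading after the Pax values were known. Of 16 neighbours, 10 were above background on both E10.5 arrays and 1 was 2-fold apart. It was the homeobox gene Nkx2-9, beside Pax9, at 1.82 in triple null against MafG+/+ E10.5 and at -1.71 in MafG+/+ E10.5 against E9.5, opposite in sign to Pax9 in both pairs. The neighbours of Pax1, Nkx2-2 and Foxa2, stood at -0.42 and 0.34 in the first pair.

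**Figure D5:**
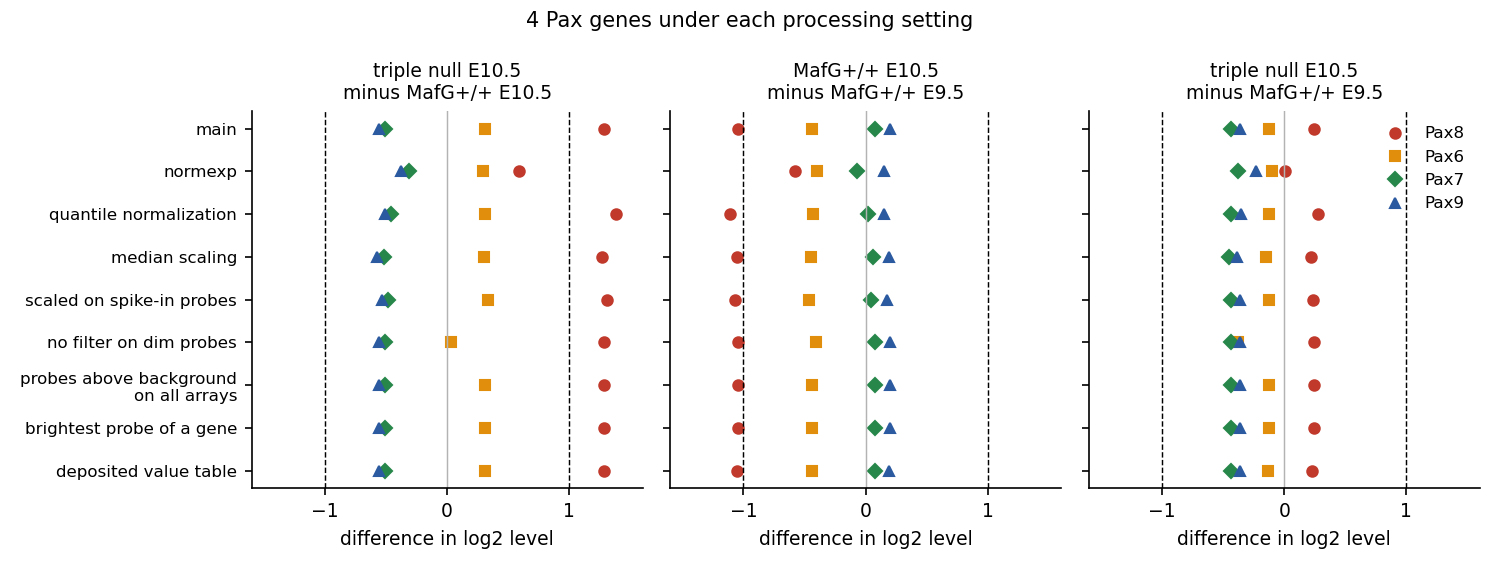
Difference in log2 level (x axis) of Pax8, Pax6, Pax7 and Pax9 in the 3 pairs of arrays under the main processing and 8 other settings (rows). Dashed lines mark 2-fold. Pax8 falls inside the lines with normexp in the first 2 panels (0.59 and -0.58), and Pax7 and Pax9 stay below 0 in the left and right panels under every setting shown.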

How the data were processed

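The authors deposited 1-colour scanner output of 3 arrays, read by Agilent's Feature Extraction software, version 9.5.3.1 (protocol GE1-v5_95_Feb07; design 014868; build mm7), per the file headers. The values used are linear background-subtracted intensities, as the authors' scanner software wrote them per the file headers; a deposited value table holds the same intensity, rounded (largest difference 0.497%), with no centring, and medians of 84.0, 115 and 83.4 on the arrays of triple null, then MafG+/+ E10.5, then MafG+/+ E9.5. All arrays shared 1 slide and 1 scan.

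The log2 intensity of 43379 non-control spots was taken minus the array's 75th percentile (1078, 1420 and 1064 in the same order). Outlier spots (59, 52 and 83) were left out, spots of a probe averaged, and a probe counted as well above background when most of its spots were. Of 41174 probes, 22944 had 1 gene symbol through RefSeq in GRCm38.p6; a gene is the mean of its probes that passed on any array (13181 genes). No p-value was computed: there was 1 array per group, and their number limits the precision. Members, lists and tests were chosen with earlier results of these data known. Named were all members, Pax4, Mafg, the list genes 2-fold apart (or the 2 farthest; farthest first, at most 4), and the 3 genes nearest in pattern to members with a range of at least 1. Some genes that this rule names are not reported here. The steps recovered known changes in simulated data. These changes were put in genes with higher levels than Pax8 and Pax2, so recovery at dim levels was not tested. Alternatives were 10 other settings. Work used Python 3.11.15, pandas 2.3.3, numpy 2.4.6, matplotlib 3.10.9, R 4.3.3 and limma 3.58.1; normexp took the median spot intensity and an offset of 50.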

Additional observations from a re-analysis of the deposited data

How the results depend on the processing

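The count of Pax genes at least 2-fold apart was 1 for triple null against MafG+/+ E10.5 and 1 for MafG+/+ E10.5 against E9.5, and 0 in both with normexp background correction and at a 3-fold threshold. It was 0 for triple null against MafG+/+ E9.5 under all 10 alternatives. Of 210 single-gene values under the alternatives, 195 kept to the rule of the spot error and the threshold, 15 did not, and no 2-fold difference turned its sign. The 2-fold count over all genes was 683, 650 and 98 in the 3 pairs, 267, 255 and 27 with normexp and 1242, 1227 and 517 without a filter on dim probes. With normexp, Pax7 between the MafG+/+ days was -0.07 and Pax1 in the first pair -0.0081. Without a filter on dim probes, Pax6 in the first pair was 0.03, because its undetected probe was averaged in. Pax1, Pax3, Pax7 and Pax9 were below 0 in triple null against both MafG+/+ arrays under all 11 settings, main included. The 3-fold and 1.5-fold thresholds alter no value, so they could not alter a sign. Taking only probes above background on all arrays gave the same Pax values as the main setting. Signals near background limit Pax2, Pax5 and Pax8. No paired analysis was possible because each group is a single array.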
